A study of Crocodylus porosus with 60 samples.

Results

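cPor-miR-N1 is 1 of the 654 mature miRNA rows in a small RNA table of the saltwater crocodile, Crocodylus porosus, and 1 of the 509 rows that carry an N with a number instead of a family name. The row was chosen by its deposited name, after it had been seen to be high in stomach and small intestine, so its order over tissues is given as a description with no test. Only 1 row carries this exact name. The deposited table gives no sequence or genome position with the name, so its seed and any relation to a named family were not analysed here.

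Small RNA libraries were made from untreated hatchlings, and the 60 samples carry 15 library names with 4 samples each. The table holds 1 value column for each name, which gives 4 testis, 2 heart and 2 brain libraries and 1 library each of stomach, small intestine, spleen, liver, tongue, cloaca and jaw skin. Column headers split the testis, heart and brain libraries evenly into runts and normal hatchlings, and the size class of the other 7 tissues is not given. Per the labels, runts were 359 days old and 386.2 ± 23.6 mm (SD) long, and normal hatchlings 373 days and 740.2 ± 73.5 mm. The cloaca column is headed cloacal gland. No label says that libraries of 1 tissue and size class came from separate animals, so p-values measure the spread between these libraries, which may in part be technical. In the tissue contrasts this spread also holds the differences between runts and normal hatchlings, since size class was no term there. Set against the tissue labels, 14 of 14 marker miRNAs were highest in the labelled tissue, among them miR-122-5p of liver and miR-9-5p of brain. These markers were listed with earlier results of the table known, and none stood for tongue or cloaca, nor for stomach once miR-145 was left aside.

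A miRNA is a short RNA that guides Argonaute proteins to messenger RNAs and lowers their translation or stability. In sequencing of whole tissue, an abundant miRNA can come from any of the cell types present. Stomach and intestine hold an epithelial lining, known in mammals for miR-215, miR-194 and the miR-200 family, and a thick coat of smooth muscle, known for miR-145. Fewer cells of a type and less RNA per cell cannot be told apart in such samples.

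miR-N1 was the most abundant of all rows in both gut libraries. It stood at 133984 RPM (its reads scaled to a common library total) in stomach and at 125413 RPM in small intestine. Counting error is small at these levels, with exact 95% Poisson intervals of 133415 to 134556 RPM on 212129 estimated reads in stomach and of 124715 to 126114 RPM on 123584 reads in small intestine. In stomach it took 13.4% of the total to which RPM are scaled (exact binomial 95% interval 13.3 to 13.5%), and in small intestine 12.5% (12.5 to 12.6%). The listed rows held 75.1% and 73.9% of that total in stomach and small intestine. Of the RPM of the listed rows alone miR-N1 took 17.8% and 17.0%. These intervals cover counting error only, and each gut tissue has a single library, so no spread between animals is known for either.

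In stomach the rows next in level were miR-148-5p (113110 RPM), miR-145 (107486 RPM), miR-N444 (55426 RPM) and miR-26a-5p (51635 RPM). miR-N1 exceeded the row ranked second 1.18-fold. Below it in small intestine stood miR-148-5p with 81820 RPM, miR-N444 with 72676 RPM, miR-26a-5p with 65382 RPM and miR-145 with 62441 RPM, and the lead over the second row was 1.53-fold. Its first rank was therefore by a small margin in stomach and a wider one in small intestine. Between the gut libraries themselves the level differed 1.07-fold, a difference without a replicate check.

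**Figure D1:**
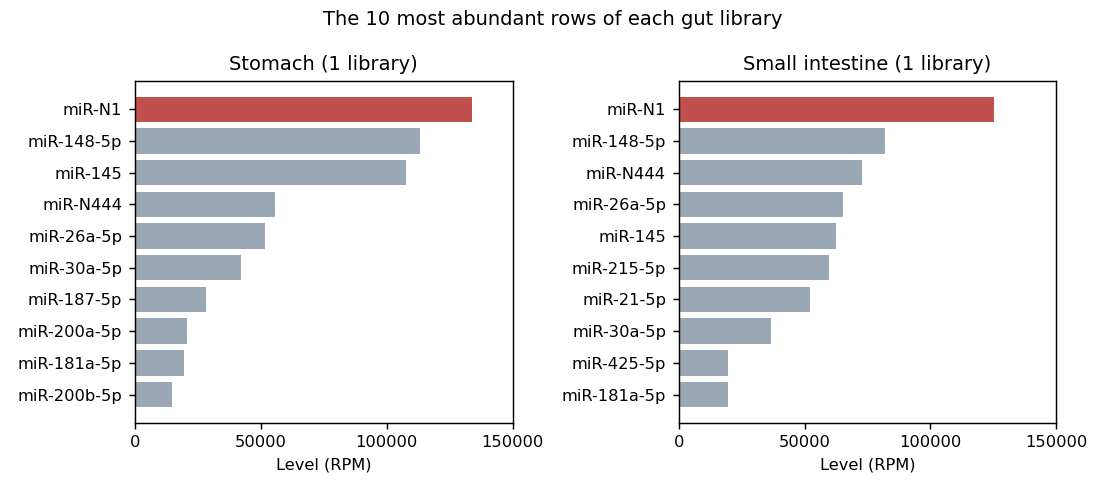
The 10 most abundant rows of the stomach library (left) and the small intestine library (right), as bars of the level on a linear RPM axis that starts at 0, with miR-N1 in red. miR-N1 leads both at 133984 and 125413 RPM, and miR-148-5p is second in both.

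RPM values share a fixed total, and the single row miR-N444 took very unequal parts of it. It ranged from 20117 RPM in spleen to 600064 RPM in the second normal testis library, which was also the testis library with the least miR-N1. In the heart it was 45526 RPM in the runt and 127367 RPM in the normal hatchling. In brain it differed more, at 53488 RPM in the runt and 230138 RPM in the normal hatchling, while miR-N1 differed 1.23-fold. Its part in the levels of miR-N1 was not tested.

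Outside the gut, miR-N1 was present in every library. Spleen had 29114 RPM, where it ranked 5th of all rows. The heart libraries were far apart, at 16323 RPM in the runt and 3826 RPM in the normal hatchling. The 4 testis libraries held 6706 and 8560 RPM in the runts and 7700 and 5181 RPM in the normal hatchlings. The size classes thus overlapped in testis in RPM, while heart gave the widest gap within any tissue with more than 1 library. After the trimmed mean scaling used for the tests, both normal testis libraries (7925 and 10594) lay above both runts (6519 and 6095). The share of all rows that separate in this way was not worked out, so this only describes these libraries.

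Liver had 5879 RPM and tongue 5168 RPM. The brain libraries had 4983 RPM in the runt and 4062 RPM in the normal hatchling. Cloaca had 2589 RPM and jaw skin 1183 RPM, the lowest level, at which miR-N1 still ranked 48th. Even there the estimate rests on 639 reads, with a Poisson interval of 1093 to 1279 RPM. Jaw skin and stomach lay 113-fold apart.

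The rank of miR-N1 within a library did not always follow its level. It was 13 to 18 in testis, 8 in the runt heart and 21 in the normal one, 17 in liver, 22 in tongue, 25 and 23 in brain, and 30 in cloaca. Within testis the library with the lowest level had rank 13 and that with the highest rank 18. In 3 libraries miR-145 was its direct neighbour in rank, above it in the second normal testis library and below it in spleen and in the normal heart.

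By tissue mean, the order ran stomach, small intestine, spleen, heart (10075 ± 8837 RPM, SD, n = 2), testis (7037 ± 1451 RPM, n = 4), liver, tongue, brain (4522 ± 651.5 RPM, n = 2), cloaca and jaw skin. Heart and testis did not differ beyond their spread, since the testis range lies inside the heart range. The single values of liver and tongue fell within the range of the testis libraries or just under it, and both fell within that of heart. Only the steps from small intestine to spleen (4.31-fold), from spleen to heart (2.89-fold) and from cloaca to jaw skin (2.19-fold) exceeded 2-fold. The runt heart library alone reached 16323 RPM, which narrows the second of these steps.

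**Figure D2:**
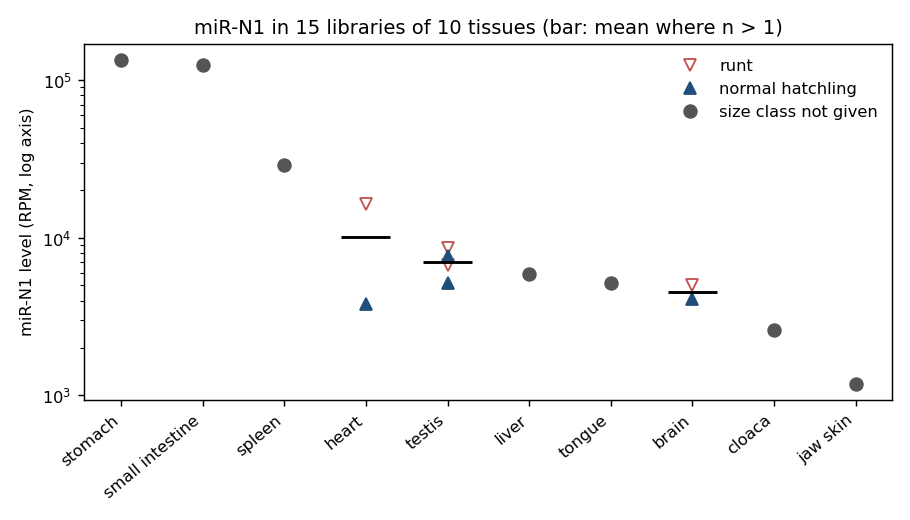
Level of miR-N1 in RPM on a log axis in each of 15 libraries, by tissue in order of the mean. Open triangles are runts, filled triangles normal hatchlings, circles libraries of no given size class, and bars the mean of tissues with more than 1 library. Stomach and small intestine lie at 133984 and 125413 RPM, spleen follows at 29114 RPM, and all other libraries lie at or under 16323 RPM.

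Against the mean of the 8 other tissues, 8196 ± 8873 RPM (SD over 8 tissues), stomach was 16.3-fold and small intestine 15.3-fold higher. Of the 316 distinct rows that reached 10 RPM in 2 libraries or more, 1.9% were at least 8-fold higher in stomach than in these tissues and 1.58% in small intestine. The row was picked for this contrast, so these shares only place it. Stomach and small intestine together held 79.8% of the summed tissue means of miR-N1, against a median of 8.4% over the 316 rows. By this share miR-N1 was number 5, after miR-215-5p (99.5%), miR-194 (93.8%), miR-216a (86%) and miR-1416 (83.1%), and was followed by miR-145 (70.2%) and miR-187-5p (68%). The rows ahead of it were far less abundant outside the gut. miR-215-5p averaged 39.3 RPM over those 8 tissues.

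Over the 10 tissues the row most like miR-N1 was miR-145, a miRNA known from vascular and visceral smooth muscle in mammals. Likeness was measured as Pearson's r of log2(RPM + 1) tissue means over 10 tissues, which share libraries and the scaling to a common total, and it is given without a p-value. miR-145 reached r = 0.97 (Spearman's rho 0.98), whereas the row second in likeness, miR-1416, reached 0.83 and the median of 315 rows was -0.09. That median is the value held by rows absent from every tissue but testis, so it does not describe rows present in all tissues. miR-N1 was in turn the row most like miR-145. A partner at least this close existed for 25.3% of the 316 rows. This share counts rows absent from every tissue but testis, which match each other exactly by construction. It therefore does not show how rare such a pair is among rows present in all tissues.

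The likeness did not rest on the gut libraries alone. Over the 8 other tissues r with miR-145 was 0.943, the highest of all rows by a margin in the fourth decimal over miR-15a, also 0.943, while that of miR-1416 fell to 0.41, of miR-194 to 0.51 and of miR-215-5p to 0.34. Over all 15 libraries r with miR-145 was 0.94. miR-15a, a low row of 2.47 to 53.95 RPM by tissue, had only 8.00 RPM in stomach, so its r over 10 tissues was 0.45. miR-26a-5p, a broadly expressed miRNA, had 0.91 over the 8 tissues, and miR-126-5p, known from endothelium, 0.86.

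**Figure D3:**
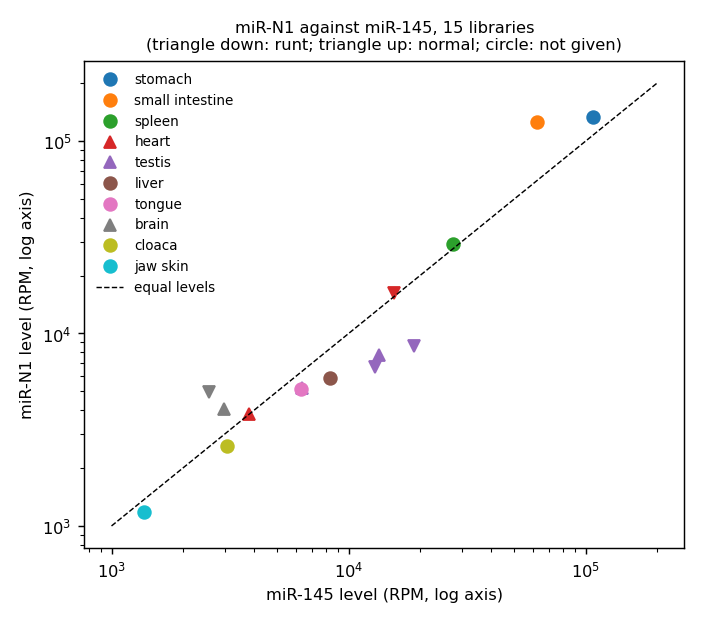
miR-N1 against miR-145, both in RPM on log axes, in 15 libraries coloured by tissue. Triangles pointing down are runts, triangles pointing up normal hatchlings and circles libraries of no given size class, and the dashed line marks equal levels. Libraries follow the line from jaw skin (1372 and 1183 RPM) to stomach (107486 and 133984 RPM), with testis under it and brain and small intestine above it. A testis library of a normal hatchling lies under the tongue point.

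Within single libraries the ratio of miR-N1 to miR-145 moved over a narrow range. It ran from 0.455 to 2.01, a 4.42-fold range, while miR-N1 itself ranged 113-fold. The SD of the log2 ratio over 15 libraries was 0.62, the lowest of the 315 rows set against miR-N1. The second lowest, that of miR-1416, was 1.29, and the median 2.53. That median falls on a row at 0 RPM in 11 of the 15 libraries. For such rows the ratio mostly follows miR-N1 itself, so the median does not describe rows present in all libraries. A ratio within a library does not change with the scaling of that library.

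Tissues still differed in this ratio. The testis libraries had ratios of 0.519 and 0.455 in the runts and 0.572 and 0.812 in the normal hatchlings, a mean of 0.589 ± 0.156 (SD, n = 4). Heart had 1.05 in the runt and 1.01 in the normal hatchling. Brain had 1.93 and 1.36. The 4 testis ratios were all under both heart ratios, which were under both brain ratios, a description with no test, since miR-145 was picked for its likeness to miR-N1. Liver, at 0.704, lay inside the testis range. Tongue (0.824), cloaca (0.841) and jaw skin (0.862) lay between testis and heart, spleen was at 1.05, stomach at 1.25 and small intestine at 2.01. Stomach and small intestine, nearly equal in miR-N1, therefore differed mainly in miR-145, which was 107486 RPM in stomach and 62441 RPM in small intestine.

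**Figure D4:**
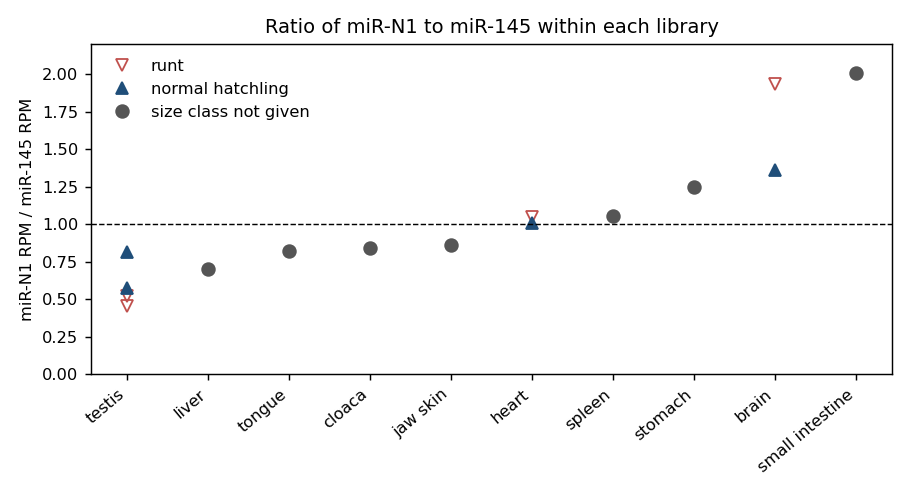
Ratio of the RPM of miR-N1 to that of miR-145 in each library, by tissue in order of the mean ratio, with a dashed line at equal levels. Open triangles are runts, filled triangles normal hatchlings and circles libraries of no given size class. The 4 testis libraries lie between 0.455 and 0.812, both heart libraries near the line, and brain and small intestine highest.

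The remaining rows most like miR-N1 were led by gut and muscle names. miR-194 had r = 0.81 and miR-215-5p 0.80, both known from intestinal epithelium, and both were concentrated in small intestine (13802 and 59669 RPM) over stomach (999.2 and 1479 RPM). miR-N1 showed no such preference between these organs. miR-1b-5p, named for the striated muscle family miR-1, had r = 0.79, with 465.1 RPM in small intestine, 400.7 RPM in stomach and 529.4 RPM in heart. miR-26a-5p followed at 0.73, miR-N83 at 0.66, miR-10a-5p of a HOX cluster at 0.63, miR-19b-5p at 0.63 and miR-148-5p at 0.58.

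Lists of miRNAs known from the cell types of these organs were set against the same measure. Of 4 matched gut epithelium rows, 2 had r of at least 0.8, where 4 of all 315 rows did, these 2 included. The median was 0.65, but miR-375 of endocrine cells had 0.50 and miR-31 had -0.01. This r includes stomach and small intestine, for which miR-N1 was picked. Over the 8 tissues outside the gut the gut epithelium rows stood at 0.51 or less, with miR-31 at -0.62. The 5 epithelium rows had a median r of 0.08, from -0.68 for miR-203-5p to 0.19 for miR-200a-5p. In jaw skin, where the keratinocyte miRNA miR-205a reached 116144 RPM, miR-N1 was at its lowest.

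Of the 4 smooth muscle and mesenchyme rows only miR-145 tracked miR-N1. miR-199-5p had r = 0.01, its second row 0.06 and miR-214-5p, known like miR-199 from mesenchymal cells, -0.35. The miR-199-5p rows share a name and may share reads, so their separate levels are uncertain. Both miR-199-5p rows were highest in spleen and miR-214-5p in cloaca. The 3 stomach or pancreas rows, miR-187-5p, miR-216a and miR-7, had r of 0.21 to 0.46. The 4 white blood cell rows, miR-150, miR-223, miR-155-5p and miR-146a-5p, all peaked in spleen, the organ next to the gut in miR-N1, and had r of -0.12 to 0.13. Over the 8 tissues outside the gut, however, miR-146a-5p had 0.57, miR-150 0.56 and miR-223 0.55, above all 4 gut epithelium rows, and miR-155-5p had 0.14. miR-192, miR-200c, miR-141, miR-143, miR-217 and miR-142 of these lists matched no row by name and were not analysed here.

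**Figure D5:**
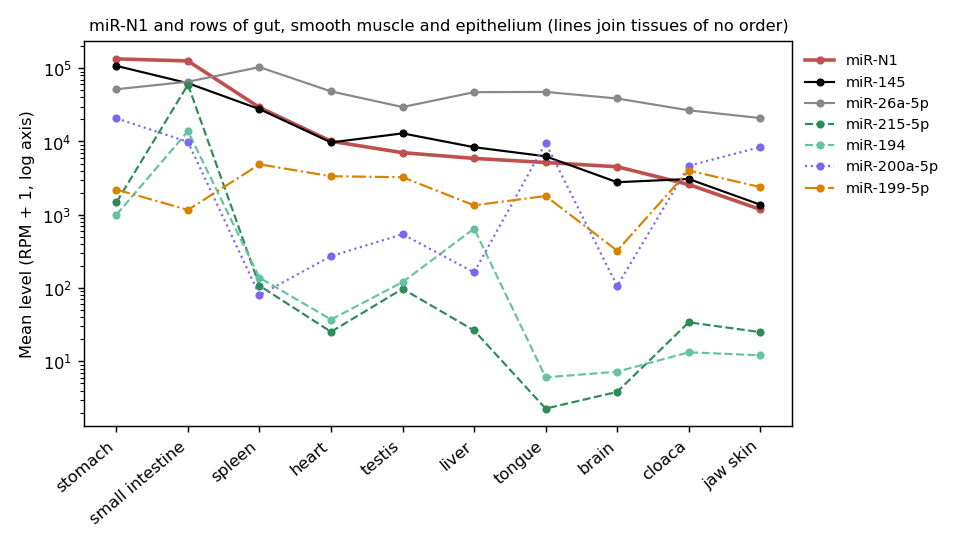
Mean level (RPM + 1, log axis) of miR-N1, miR-145, miR-26a-5p, miR-215-5p, miR-194, miR-200a-5p and miR-199-5p in 10 tissues, ordered by miR-N1; lines only join points of 1 row. miR-N1 and miR-145 stay close from stomach to jaw skin, while miR-215-5p falls from 59669 RPM in small intestine to 1.27 RPM in tongue and miR-200a-5p rises again in tongue and jaw skin.

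Testis, heart and brain have more than 1 library. miR-N1 was not chosen for contrasts among them, although their levels entered its comparison with the gut. These contrasts were tested with limma on log2(scaled RPM + 1) over 319 rows, with Benjamini-Hochberg adjustment over all of them. miR-N1 passed in none. In testis against heart its log2 fold was 0.04 (SE 0.66, 1.03-fold with a 95% interval of 0.371 to 2.84-fold, limma adjusted p = 0.966), in a comparison that called 34.8% of the rows. Its sign turned under other scalings, and the median of all rows was itself at 0.50. Leaving out the normal heart library gave a log2 fold of -1.17 and leaving out the runt heart library 0.88, both without a call. Of the smooth muscle and mesenchyme rows 0 of 4 were called, and of the gut epithelium rows miR-31 and miR-375 were higher in testis, 2 of 4, where 24.8% of all rows were higher. miR-375 had 10567 and 12144 RPM in the runt testis libraries but 234 and 128.4 RPM in the normal ones. The heart libraries had 23.24 RPM in the runt and 9.19 RPM in the normal hatchling. This fit held no term for size class. Also higher in testis were miR-203-5p of the epithelium list and miR-7 of the stomach or pancreas list, while 0 of 4 white blood cell rows were called. miR-203-5p was low in both tissues, with means of 9.5 RPM in testis and 1.69 RPM in heart, so its call rests on few reads.

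In testis against brain the log2 fold of miR-N1 was 0.91 (SE 0.66, 95% interval -0.55 to 2.38, limma adjusted p = 0.301), while 45.1% of the rows were called. All 4 testis libraries had more miR-N1 than both brain libraries in RPM. miR-145 was called in this contrast. Testis held 12902 ± 5097 RPM of it (n = 4) against 2780 ± 283.1 RPM for brain (n = 2), a log2 fold of 2.41 (SE 0.66, limma adjusted p = 0.012). All 4 smooth muscle and mesenchyme rows were higher in testis, as were 3 of 4 gut epithelium rows (miR-375, miR-194 and miR-215-5p), where 29.2% of all rows were higher. Both miR-199-5p rows, which may share reads, count among those 4. The brain means of miR-194 and miR-215-5p were only 6.2 and 2.84 RPM, and miR-375 was split by size class in testis, as given above. miR-200b-5p, miR-150 and miR-223 were higher in testis as well. miR-216a was lower, in 1 of 3 stomach or pancreas rows, where 16% of all rows were lower. Its testis mean was only 2.76 RPM. Whether the changes of miR-N1 and miR-145 differ was not tested.

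In heart against brain the log2 fold of miR-N1 was 0.88 (SE 0.76, 95% interval -0.82 to 2.57, limma adjusted p = 0.563), against 21.3% of rows called. It rested on the runt heart library. Without that library it was -0.13, and without the normal heart library 2.08 with an adjusted p of 0.0609, where its range over all alternatives was 0.0609 to 1. miR-145 had a log2 fold of 1.54 here (adjusted p = 0.211). Of its list only miR-214-5p was higher in heart (log2 fold 3.18, SE 0.74, limma adjusted p = 0.0128), where 7.84% of all rows were higher. Lower in heart were miR-7 and miR-216a of the 3 stomach or pancreas rows, miR-31 of the 4 gut epithelium rows and miR-203-5p of the 5 epithelium rows, where 13.5% of all rows were lower. miR-216a and miR-203-5p were near the floor in heart, at means of 0.32 and 1.69 RPM. The intervals of all these contrasts span changes of more than 2-fold, so they do not show equal levels.

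Runts and normal hatchlings were raised alike, and the labels name differences in their transcripts as an aim. Over testis, heart and brain with tissue as a term, miR-N1 had a log2 fold of 0.17 in runts (SE 0.62, 95% interval -1.20 to 1.53, limma adjusted p = 0.949). Of 293 rows tested 0% were called by limma, with 24 rows at an unadjusted p under 0.05, 1 row called without further scaling and 3 rows in the testis libraries alone. Without either heart library, the log2 fold of miR-N1 was -0.66, and in testis alone -0.56, neither called. These values are after scaling. In RPM the mean of miR-N1 was 1.19-fold higher in runt testis and 1.23-fold higher in runt brain.

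The gap between the heart libraries ran across rows of every list. miR-N1 was 4.27-fold higher in the runt heart and miR-145 4.11-fold (15606 against 3800 RPM). Of the 20 matched list rows 19 were higher in the runt, 9 of them by at least as much as miR-N1 on the log2(RPM + 1) scale, with a median of 2.06. Both miR-199-5p rows, which may share reads, are counted in each of these numbers. Of all 316 rows 9.18% were higher by at least as much, and the median row was at 0. The 316 rows include rows at 0 RPM in both heart libraries, which could not differ, so neither value describes rows present in heart. The share of all rows higher by any amount was not worked out, so the 19 of 20 stands without a background. Several list rows lay near the floor of the normal heart library, where a read is worth 1.15 RPM. There miR-215-5p and miR-216a were at 0 RPM and miR-203-5p at 1.15 RPM. miR-194, miR-155-5p and miR-146a-5p were at 3.45 RPM, so the direction of such rows rests on few reads.

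Rows of other cell types and tissues were among those higher in the runt heart. All 5 epithelium rows were higher, with miR-200a-5p at 487.3 against 56.32 RPM, and so were all 4 gut epithelium rows, with miR-215-5p at 48.7 against 0 RPM and miR-194 at 69.07 against 3.45 RPM. The white blood cell rows were higher in 4 of 4, from 1.76-fold for miR-150 to 33.42 against 3.45 RPM for miR-155-5p, with miR-223 at 4.4-fold. These list counts also stand without a background, since the share of all rows higher was not worked out. miR-122-5p of liver was 8.16-fold higher (919.6 against 112.6 RPM). This was not particular to heart, since testis had 285.9 and 3152 RPM of it in the runts and 43.31 and 66.75 RPM in the normal hatchlings. Brain had 1.9 RPM in the runt and 2.31 RPM in the normal hatchling. miR-148-5p, also highest in liver, differed only 1.02-fold between the heart libraries. In the smooth muscle and mesenchyme list miR-199-5p was 5.43-fold higher, whereas miR-214-5p was lower, at 1014 against 1368 RPM. Estimated depth was 3140000 reads in the runt and 870000 in the normal heart, and the listed rows held 55.3% and 67.1% of their RPM. The part of these rows, of depth and of the listed share in the gap of miR-N1 was not tested. In brain, miR-N1 was 1.23-fold higher in the runt in RPM and miR-145 lower, at 2580 against 2980 RPM. After the trimmed mean scaling used for the tests, miR-N1 was lower in the runt brain, at 3263 against 4987. Heart and brain have 1 library of each size class, so these are differences between libraries.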

How the data were processed

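The deposited values are RPM of each mature miRNA, as read from the values. Per the file headers, the authors counted with the quantifier of miRDeep2 (2_0_0_8). Bowtie 1.2.0, bedtools 2.26.0 and bcl2fastq 2 stand in the submitters' processing notes with no step named. The total behind the scaling and the genome build are not given in the sources used here. The table has 1 more value column, left out because its name fits no sample. The smallest value found at least 15 times in a library gave the worth of 1 read, hence a depth of 540000 to 4760000 reads. Of values up to 50 reads, 88.3% to 94.2% were whole within 0.1 reads, so values were not treated as counts.

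The plan allowed for counts or RPM, and limma 3.58.1 in R 4.3.3 was used, with an intensity trend, on log2(RPM + 1) scaled by a trimmed mean of log ratios (trims 30% and 5%). A row was tested if 2 libraries or more reached 10 RPM, two-sided at 0.05. The tissue fit held all 15 libraries with no term for size class, so differences between runts and normal hatchlings are part of its spread. The size class fit held 8 libraries with tissue as a term. Fold changes understate those of low rows. The fit was tested on simulated data with 200 of 319 rows changed, and 200 of 293 for runts. Of 4-fold changes it recovered 53.1% in heart against brain, 76.5% in testis against heart and 74.6% in testis against brain. For runts it recovered 87.9%. Of unchanged rows 3.36% were called in the tissue contrasts and 4.3% for runts. More rows were changed than the real contrasts called, so these shares do not carry over directly. Named were the 10 rows most like miR-N1, the first 5 ranks of the gut libraries, the neighbours of miR-N1 in rank and 5 lists of miRNAs. The row and lists were chosen with earlier results of these data known. miR-15a, miR-126-5p and, between runts and normal hatchlings, miR-122-5p and miR-148-5p were named after their values were seen.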

Additional observations from a re-analysis of the deposited data

Results flagged for a closer look

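In the 4 testis libraries, miR-N1 and its ratio to miR-145 held no value that stood apart by Dixon's 95% limit. Of 29 quantities examined in testis 3 did, where chance flags about 1 in 20. miR-205a, a keratinocyte miRNA, stood at 8.15 RPM in the second normal library, under the next value of 34.96 RPM. miR-150, of lymphocytes, stood at 2189 RPM in the same library, under 3785 RPM. That library had a scaling factor of 0.489, by which values were divided for the tests, against 0.972 to 1.40 in the other testis libraries. The flags were set on RPM before this scaling. Divided by these factors, miR-150 in that library no longer lies under the other testis libraries. Dixon's limit was not tested after scaling. miR-146a-5p, of white blood cells, stood at 22.86 RPM in the first normal library, over 11.72 RPM.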

How the results depend on the processing

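No call of miR-N1 arose in any of 52 alternative fits of the 4 contrasts. In testis against heart its log2 fold was -0.19 without further scaling, -0.19 with a median of ratios and -0.25 with these tissues alone, and -1.17 to 0.88 leaving out each library. In heart against brain it was -0.13 to 2.08 leaving out each library. For runts it was 0.73 without further scaling, 0.09 with a median of ratios, -0.56 in testis alone and -0.66 to 0.48 leaving out each library. In testis against brain it stayed positive in all 13 alternatives (0.47 to 1.15). Without further scaling the median of all rows moved from 0.50 to 0.31 in testis against heart, from 0.55 to 0.29 in testis against brain, and from 0.05 to 0.54 in runts.

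Rows called in testis against brain were 219 of 654 with no filter on low values, against 144 of 319 with it. The share called was thus smaller without the filter. Leaving out each library, 88 to 135 rows were called in this contrast. In heart against brain 16 to 54 were called leaving out each library, against 68. A tissue left with 1 library was assumed to vary like the others. For runts 1 row was called without further scaling, 3 in testis alone and 0 to 14 leaving out each library, 14 without the runt heart and 5 without the normal heart.

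The level in stomach was 24.3-fold that of the median and 4.6-fold that of the highest other tissue, 13.3-fold as a share of listed rows and 20.2-fold with trimmed mean scaling. In small intestine these were 22.7, 4.31, 12.7 and 17.9-fold. The ratio of stomach to small intestine was 1.05 as a share of listed rows and 1.13 with trimmed mean scaling. First rank in both organs remained with repeated rows used once and among family-named rows. Both alternatives only drop other rows, so a first rank could not be lost and they do not test it. miR-145 was the row most like miR-N1 by rho and by r over 8 tissues (0.943) and 15 libraries (0.945). No paired analysis was possible because the labels give tissues no shared replicate numbers. Depth bounds counting error only, and 7 tissues have 1 library.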
